A study of Mus musculus with 24 samples.

Results

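The report concerns 10 mouse genes whose proteins bring fatty acids into liver cells or bind them there: Cd36, Vldlr, Lpl, Slc27a1, Slc27a2, Slc27a4, Slc27a5, Fabp1, Fabp2 and Fabp4. They were listed by name for their function, with earlier results of these data known, out of 24443 gene names, and all 10 were present and passed the filter on low levels in each of the 4 deposited tables. The tables hold RNA levels of male C57BL/6 livers in 5 groups of 4 libraries. Fed WT and fasted WT livers carried Bcl6 fl/fl alleles and no Cre, and were taken from mice with free access to food or after an overnight fast. Fed Bcl6LKO livers carried Bcl6 fl/fl with Alb-Cre, a recombinase driven by the albumin promoter, so deletion is directed to hepatocytes and the other liver cells keep Bcl6. Fasted PparaKO livers were Ppara-/- in the whole animal, and the labels name no floxed allele for them, so they differ from their WT controls in that respect as well. Fasted DKO livers were Ppara-/- and Bcl6 fl/fl with Alb-cre. The labels give no age. They also do not state that each library is a different animal, and every p-value therefore reflects only how these libraries vary, which may be technical. Each pair of groups has a table of its own (called here the fasting, Bcl6LKO, PparaKO and DKO table), normalised by itself. Levels are log2 values as deposited, and no level is compared across tables.

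Fatty acids reach the liver bound to albumin from fat stores, or inside triglyceride-rich lipoproteins. Lipoprotein lipase (Lpl) splits the triglyceride of such particles at the vessel wall, and the VLDL receptor (Vldlr) binds the particles. CD36 at the cell surface and the fatty acid transport proteins (the Slc27a family, several of which also join fatty acids to coenzyme A) help fatty acids into the cell, and the fatty acid binding proteins (Fabp family) carry them in the cytosol. PPARα, encoded by Ppara, is a nuclear receptor that fatty acids activate and that switches on genes of fat use in the fasted liver, and BCL6 is a transcriptional repressor. The study asked how fasting, BCL6 and PPARα act together on such genes.

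The genes are spread over the genome (GRCm38, which is mm10, GENCODE M21). Cd36 lies on chromosome 5 (17781690 to 17888801, minus strand), Vldlr on chromosome 19 (27216484 to 27254231, plus strand) and Lpl on chromosome 8 (68880491 to 68907448, plus strand). Slc27a1 is also on chromosome 8 (71568882 to 71587302, plus strand), Slc27a2 and Slc27a4 are on chromosome 2 (126552407 to 126588243 and 29802634 to 29817522, both plus strand) and Slc27a5 is on chromosome 7 (12988346 to 12998192, minus strand). Fabp1 is on chromosome 6 (71199827 to 71205023, plus strand), and Fabp2 and Fabp4 are on chromosome 3 (122895072 to 122899506, plus strand, and 10204088 to 10208576, minus strand). Only Slc27a2 shares exonic bases with another annotated gene, 419 bases with the long noncoding RNA Gm26697 on the opposite strand. The libraries were stranded, but whether counting used strand is not stated in the sources used here, so reads over those bases cannot be assigned with certainty.

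The promoter of Fabp1 is shown because Fabp1 had the largest loss of the 10 genes in both Ppara-null groups and because it alone among the genes with a promoter entry held a direct repeat of the kind that PPARα binds with its partner RXR. The window below comes from RefSeq (GRCm38.p6), chr6:71199732-71199826, plus strand, and ends before both the RefSeq and the GENCODE start of the gene.
Fabp1 upstream: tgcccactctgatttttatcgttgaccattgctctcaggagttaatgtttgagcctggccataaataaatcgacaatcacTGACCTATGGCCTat
The capitals mark a match, on the minus strand, to AGGNCANAGGNCA, which is 2 half-sites spaced by 1 base (a DR1), searched on both strands. The match lies at 71199812 to 71199824, between 67 and 55 bases before the RefSeq start. Of 32851 RefSeq promoter windows of 300 bases (250 before the start and 50 after it), 0.381% held this pattern. Promoter entries matched 7 of the 10 genes (10 windows, none for Slc27a5, Fabp4 or Lpl). The stricter AGGTCANAGGTCA was in none of the 10 windows and in 0.0396% of all windows. The shorter core GGNCANAGG, which lies within the longer pattern, was present in the windows of Fabp1 and Slc27a2 and in 8.46% of all windows. The pattern TTCNNNGAA, the core of STAT and BCL6 motifs, was in none of the 10 windows and in 8.3% of all windows. These matches are descriptions of letters in a window. The paper placed most regions bound by both BCL6 and PPARα outside promoters, and such regions were not searched here.

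Read counts were not used, so the depth of the libraries is unknown. Between 11910 and 12115 genes were tested per table, and 1416 were higher and 1309 lower in fasted WT, 2212 and 2394 in Bcl6LKO, 1400 and 1586 in PparaKO and 2314 and 2494 in DKO livers. When each library was instead scaled to the same total, the split became 810 and 3293 for fasting, 976 and 6892 for Bcl6LKO and 1590 and 3416 for DKO, and the median difference of all genes in the Bcl6LKO table became -0.22. Bcl6 itself was 8.02 to 10.49 in fed WT and 7.62 to 8.54 in Bcl6LKO libraries (limma, difference -1.53, SE 0.45, adjusted p = 0.0207), so the groups overlapped. It did not pass the test in the DKO table (-0.39, SE 0.47, adjusted p = 0.540). Ppara was lower in both null groups (-1.04, SE 0.08, adjusted p = 3.82e-06, and -1.77, SE 0.19, adjusted p = 4.53e-05). Among the other comparisons, Ppara was higher with fasting (0.46, SE 0.08, adjusted p = 0.00203) and also passed as lower in Bcl6LKO livers. Both were counted over whole genes, deleted and retained exons together, so these levels check the labels only in part. The paper measured Bcl6LKO livers by quantitative PCR and Western blot and reports strong losses of both Bcl6 mRNA and BCL6 protein.

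The 10 genes spanned a wide range of levels. Per kilobase of annotated exon, fed WT livers (fasting table) had Fabp1 first at 15.47 ± 0.16 (log2 level per kilobase, SD, n = 4), followed by Slc27a2 at 12.74 ± 0.11 and Slc27a5 at 12.34 ± 0.07, the transport protein that also activates bile acids. Those ranges did not touch. Fabp2 followed at 9.07 ± 0.18 and Cd36 at 7.78 ± 0.19. Slc27a4, Lpl and Fabp4 lay at 7.02 ± 0.04, 6.86 ± 0.24 and 6.60 ± 0.11, and the range of Lpl (6.50 to 7.02) overlapped those of both its neighbours. Slc27a1 was ninth at 5.48 ± 0.10 and Vldlr last at 2.28 ± 0.29. In fasted WT livers Slc27a1 stood sixth at 7.21 ± 0.32, with a range (6.97 to 7.67) that overlapped that of Slc27a4, and Lpl stood ninth at 6.19 ± 0.09. If the deposited values are regularised logarithms, which the sources used here do not state, folds of low genes such as Vldlr would be understated.

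The comparison of fasted with fed WT livers asks which of these genes a fast moves. Of the 10 genes, 5 were higher in fasted WT livers (Slc27a1, Cd36, Slc27a2, Fabp2 and Vldlr), 2 were lower (Lpl and Fabp1), and Slc27a4, Slc27a5 and Fabp4 did not pass the test (limma, adjusted p under 0.05 over all 11910 tested genes). Of all genes tested for fasting, 22.9% passed, 11.9% higher and 11% lower. The median difference of the 10 genes was 0.41, beside -0.00 for all tested genes. Only Slc27a1 passed with a change of more than 2-fold, as did 1.16% of all tested genes.

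Slc27a1 encodes the fatty acid transport protein best known from muscle and fat. Across replicates 1 to 4 its level was 6.999, 6.95, 7.13 and 6.88 after feeding and 8.51, 8.47, 9.18 and 8.71 after fasting. Every fasted library lay above every fed one, with replicate 3 the highest, and the difference was 1.73 (SE 0.14, adjusted p = 4.99e-05), a fold of 3.31. Slc27a2, the main very-long-chain fatty acid transport protein of liver, was 14.24, 14.34, 14.41 and 14.16 in fed and 15.06, 15.07, 15.12 and 14.92 in fasted libraries. Again the groups did not overlap, and the difference was 0.76 (SE 0.08, adjusted p = 0.000140). Slc27a5 reached 0.17 (SE 0.06, adjusted p = 0.0616) and Slc27a4, a transport protein of many tissues, 0.05 (SE 0.04, adjusted p = 0.376).

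Cd36 was 9.79, 9.69, 9.62 and 9.34 in the fed group and 10.27, 10.67, 10.30 and 10.73 in fasted WT libraries. The groups were separate and the difference was 0.89 (SE 0.12, adjusted p = 0.000801), a fold of 1.85. Vldlr was 5.75, 5.26, 5.27 and 5.06 in fed and 6.55, 6.06, 5.65 and 5.70 in fasted libraries. Fed replicate 1 lay above fasted replicates 3 and 4, and the difference of 0.66 (SE 0.20, adjusted p = 0.0398) was lost without fed WT replicate 2, 3 or 4 or fasted WT replicate 1 or 2 (adjusted p up to 0.108), with equal totals (adjusted p = 0.0505) and with a robust prior spread (adjusted p = 0.0838). Without fed WT replicate 1 it was 0.80 (adjusted p = 0.0193). Lpl was 8.54, 9.01, 8.98 and 9.06 in fed and 8.30, 8.10, 8.27 and 8.26 in fasted libraries. All fasted libraries were lower, and the difference was -0.66 (SE 0.11, adjusted p = 0.00179), or -0.78 without fed replicate 1, which stood below the other fed libraries.

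The binding proteins moved in opposite directions. Fabp1, the binding protein of liver and intestine, was 14.76, 14.39, 14.66 and 14.64 in fed and 14.31, 14.11, 14.07 and 14.15 in fasted libraries, a difference of -0.45 (SE 0.09, adjusted p = 0.00507) with no overlap. Fabp2, first known from intestine, was 9.29, 8.89, 8.93 and 8.96 in fed and 9.69, 9.62, 9.80 and 9.84 in fasted libraries. All fasted libraries were higher (0.72, SE 0.09, adjusted p = 0.000417). Fabp4, a binding protein of fat cells, macrophages and capillary endothelium, was 6.44 ± 0.11 in fed and 6.38 ± 0.08 in fasted livers and did not pass (adjusted p = 0.606). In all, 6 of the 10 genes had fed and fasted libraries that did not overlap, as did 26.3% of tested genes.

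The comparison of Bcl6LKO with WT livers, both fed, asks which genes differ without BCL6 in hepatocytes. Cd36 and Vldlr, both at the cell surface, were higher in Bcl6LKO livers, Slc27a2 and Fabp1 were lower, and the other 6 genes did not pass the test. Of all genes tested here, 38% passed (18.3% higher, 19.8% lower), so 4 of 10 is near the share of all genes. The groups did not overlap for 5 of the 10 genes and for 36.7% of tested genes. The median difference of the 10 genes was -0.01, as it was for all genes (-0.01). Cd36 alone passed with a change of more than 2-fold, as did 4.23% of tested genes.

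Cd36 was 9.83, 9.71, 9.64 and 9.33 in fed WT and 11.84, 11.67, 11.58 and 11.51 in Bcl6LKO libraries. The lowest Bcl6LKO library stood well above the highest WT library, and the difference of 2.02 (SE 0.10, 95% interval 1.79 to 2.25, limma adjusted p = 1.34e-07), a fold of 4.07, exceeded that of 99.2% of tested genes. The paper also reports higher Cd36 RNA in fed Bcl6LKO livers by quantitative PCR. Its direct assay of fatty acid uptake in living mice found no difference between Bcl6LKO mice and controls. The values here are RNA levels and do not measure uptake. Vldlr was 5.69, 5.03, 5.05 and 4.73 in WT and 6.26, 5.81, 5.70 and 5.84 in Bcl6LKO libraries. WT replicate 1 came close to the lowest Bcl6LKO library but the groups did not overlap, and the difference was 0.78 (SE 0.19, adjusted p = 0.00809), or 0.97 without that WT library. Lpl was 8.64, 9.16, 9.13 and 9.23 in WT and 9.49, 9.36, 9.15 and 9.22 in Bcl6LKO libraries, which overlapped (0.27, SE 0.12, adjusted p = 0.116).

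Slc27a2 was 14.08, 14.20, 14.27 and 13.999 in WT and 13.51, 13.28, 13.27 and 13.33 in Bcl6LKO libraries, all of them lower (-0.79, SE 0.08, adjusted p = 1.95e-05). Fabp1 was 14.78, 14.37, 14.67 and 14.65 in WT and 13.83, 13.98, 14.01 and 13.90 in Bcl6LKO libraries, again without overlap (-0.69, SE 0.09, adjusted p = 0.000156). The groups of Slc27a5 were also separate, but its difference of -0.16 (SE 0.06, adjusted p = 0.0584) did not pass. Slc27a1, the gene most changed by fasting among the 10, stood at 6.40 ± 0.13 in WT and 6.41 ± 0.11 in Bcl6LKO livers (0.00, SE 0.08, 95% interval -0.18 to 0.19). Fabp2 was at -0.02 (95% interval -0.30 to 0.27), Slc27a4 at -0.13 (adjusted p = 0.0909) and Fabp4 at 0.17 (adjusted p = 0.175). With equal library totals, Slc27a1 (-0.21), Slc27a4 (-0.34) and Slc27a5 (-0.38) passed as lower, beside the median of -0.22 that all genes then had.

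The comparison of PparaKO with WT livers, both fasted, asks which levels in the fasted liver differ without PPARα. No gene of the 10 was higher and 7 were lower, namely Fabp1, Slc27a1, Cd36, Slc27a2, Vldlr, Fabp2 and Slc27a5. Of all genes tested here, 25% passed (11.7% higher, 13.3% lower). The median difference of the 10 genes was -0.54, beside 0.01 for all tested genes, and 8 of the 10 had groups that did not overlap, as did 26.7% of tested genes. Fabp1, Slc27a1 and Cd36 passed with a change of more than 2-fold, as did 1.58% of tested genes.

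Fabp1 levels of 14.01, 13.81, 13.76 and 13.85 in the fasted WT group stood against 12.04, 12.17, 11.13 and 11.38 in PparaKO libraries. Replicates 3 and 4 were the lowest and the PparaKO libraries spread more widely (SD 0.51) than the WT libraries (SD 0.11). The difference was -2.18 (SE 0.20, limma adjusted p = 2.12e-05), a fold of 4.53, and its rank from the lowest was within the first 0.151% of tested genes. Fabp2 was lower by a smaller amount, from 9.79 ± 0.10 to 9.42 ± 0.14 (-0.37, SE 0.08, adjusted p = 0.00501), and Fabp4 was 6.35 ± 0.09 and 6.32 ± 0.09 (adjusted p = 0.848).

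Slc27a1 was 8.54, 8.50, 9.21 and 8.74 in WT and 7.14, 6.98, 6.95 and 7.27 in PparaKO libraries, well apart (-1.66, SE 0.14, adjusted p = 1.15e-05). Slc27a2 was 15.04, 15.05, 15.10 and 14.90 in WT and 13.99, 14.07, 14.10 and 14.27 in PparaKO libraries, likewise separate (-0.91, SE 0.09, adjusted p = 3.61e-05). Slc27a5 was lower at -0.36 (SE 0.08, adjusted p = 0.00926), and the groups of Slc27a4 were separate although its -0.15 (SE 0.06, adjusted p = 0.0946) did not pass. Cd36 was 10.25, 10.64, 10.27 and 10.71 with PPARα and 9.61, 9.46, 9.27 and 9.20 in PparaKO libraries, with every null library lower (-1.08, SE 0.12, adjusted p = 9.41e-05). Vldlr was 6.61, 6.11, 5.65 and 5.70 in WT and 5.33, 5.37, 5.16 and 5.41 in PparaKO libraries, and the groups did not overlap (-0.70, SE 0.18, adjusted p = 0.0138). Lpl was 8.11, 7.89, 8.07 and 8.07 in WT and 8.37, 7.51, 7.40 and 7.90 in PparaKO libraries. PparaKO replicate 1 was the highest library of all 8, and the difference of -0.24 (adjusted p = 0.337) became -0.43 (adjusted p = 0.0214) without it, -0.14 without PparaKO replicate 2 and -0.11 (adjusted p = 0.684) without PparaKO replicate 3.

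The comparison of DKO with WT livers, both fasted, asks what differs when hepatocyte BCL6 is absent along with PPARα. Again no gene was higher, and Fabp1, Slc27a1, Slc27a2, Fabp2, Slc27a5 and Slc27a4 were lower, while Cd36, Vldlr, Lpl and Fabp4 did not pass. Of all genes tested here, 40.1% passed (19.3% higher, 20.8% lower), and groups did not overlap for 39.1%. The median difference of the 10 genes was -0.38, beside 0.00 for all tested genes. Fabp1, Slc27a1 and Slc27a2 passed with a change of more than 2-fold, as did 6.11% of tested genes. The 4 Slc27a genes among the 10 were thus lower, as were Fabp1 and Fabp2. Another gene of that family, Slc27a3, named after its values were seen, was higher (0.32, SE 0.11, adjusted p = 0.0365), a call lost with equal totals, median centring and quantile normalisation (adjusted p up to 0.0884) and without WT replicate 1, 2 or 4 or DKO replicate 1, 2 or 3 (adjusted p up to 0.0969). In the fasting table Slc27a3 had means of 3.94 in fed and 3.87 in fasted WT livers, below the minimum of 4, and was not tested.

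Fabp1 was 14.05, 13.83, 13.77 and 13.87 in WT and 12.19, 12.16, 11.22 and 10.95 in DKO libraries. DKO replicates 3 and 4 lay lowest, all were below WT, and the difference was -2.25 (SE 0.25, limma adjusted p = 6.17e-05), a fold of 4.76. Slc27a1 was 8.58, 8.54, 9.30 and 8.80 in WT and 7.31, 7.14, 7.13 and 7.16 in DKO libraries, which stood close together (-1.62, SE 0.15, adjusted p = 1.55e-05). Slc27a2 was 14.97, 14.98, 15.03 and 14.82 in WT and 13.46, 13.57, 13.52 and 13.00 in DKO libraries, with replicate 4 the lowest (-1.56, SE 0.13, adjusted p = 6.91e-06). Fabp2, Slc27a5 and Slc27a4 differed less, by -0.77 (SE 0.09, adjusted p = 0.000105), -0.46 (SE 0.10, adjusted p = 0.00419) and -0.30 (SE 0.07, adjusted p = 0.00736), and their groups did not overlap either.

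Cd36 was 10.31, 10.73, 10.32 and 10.79 in WT and 10.60, 10.27, 10.26 and 10.10 in DKO libraries. The groups overlapped, and the difference was -0.23 (SE 0.14, 95% interval -0.54 to 0.07, adjusted p = 0.202). Vldlr was 7.12, 6.52, 5.96 and 6.02 in WT and 6.56, 6.73, 6.71 and 7.37 in DKO libraries. WT replicate 1 was above 3 of the 4 DKO libraries, and the difference of 0.44 (95% interval -0.13 to 1.003, adjusted p = 0.197) became 0.68 (adjusted p = 0.0294) without it, 0.29 without WT replicate 3 and 0.26 (adjusted p = 0.424) without DKO replicate 4. Lpl differed by -0.29 (adjusted p = 0.115), which passed with equal totals (-0.38, adjusted p = 0.0378) or without DKO replicate 1 (-0.41, adjusted p = 0.0146) and was -0.17 (adjusted p = 0.259) without DKO replicate 4. Fabp4 differed by 0.27 (adjusted p = 0.133), which passed without DKO replicate 2 (0.39, adjusted p = 0.0315) and was 0.19 (adjusted p = 0.314) without DKO replicate 3. The DKO and PparaKO libraries are in different tables and were not compared by a test. Their values against fasted WT stood side by side at -0.23 and -1.08 for Cd36, 0.44 and -0.70 for Vldlr, -1.56 and -0.91 for Slc27a2, and -2.25 and -2.18 for Fabp1. Each table was normalised by itself, so these sizes are not on one scale. The same fasted WT libraries had Vldlr at 5.65 to 6.61 in the PparaKO table and 5.96 to 7.12 in the DKO table.

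**Figure D1:**
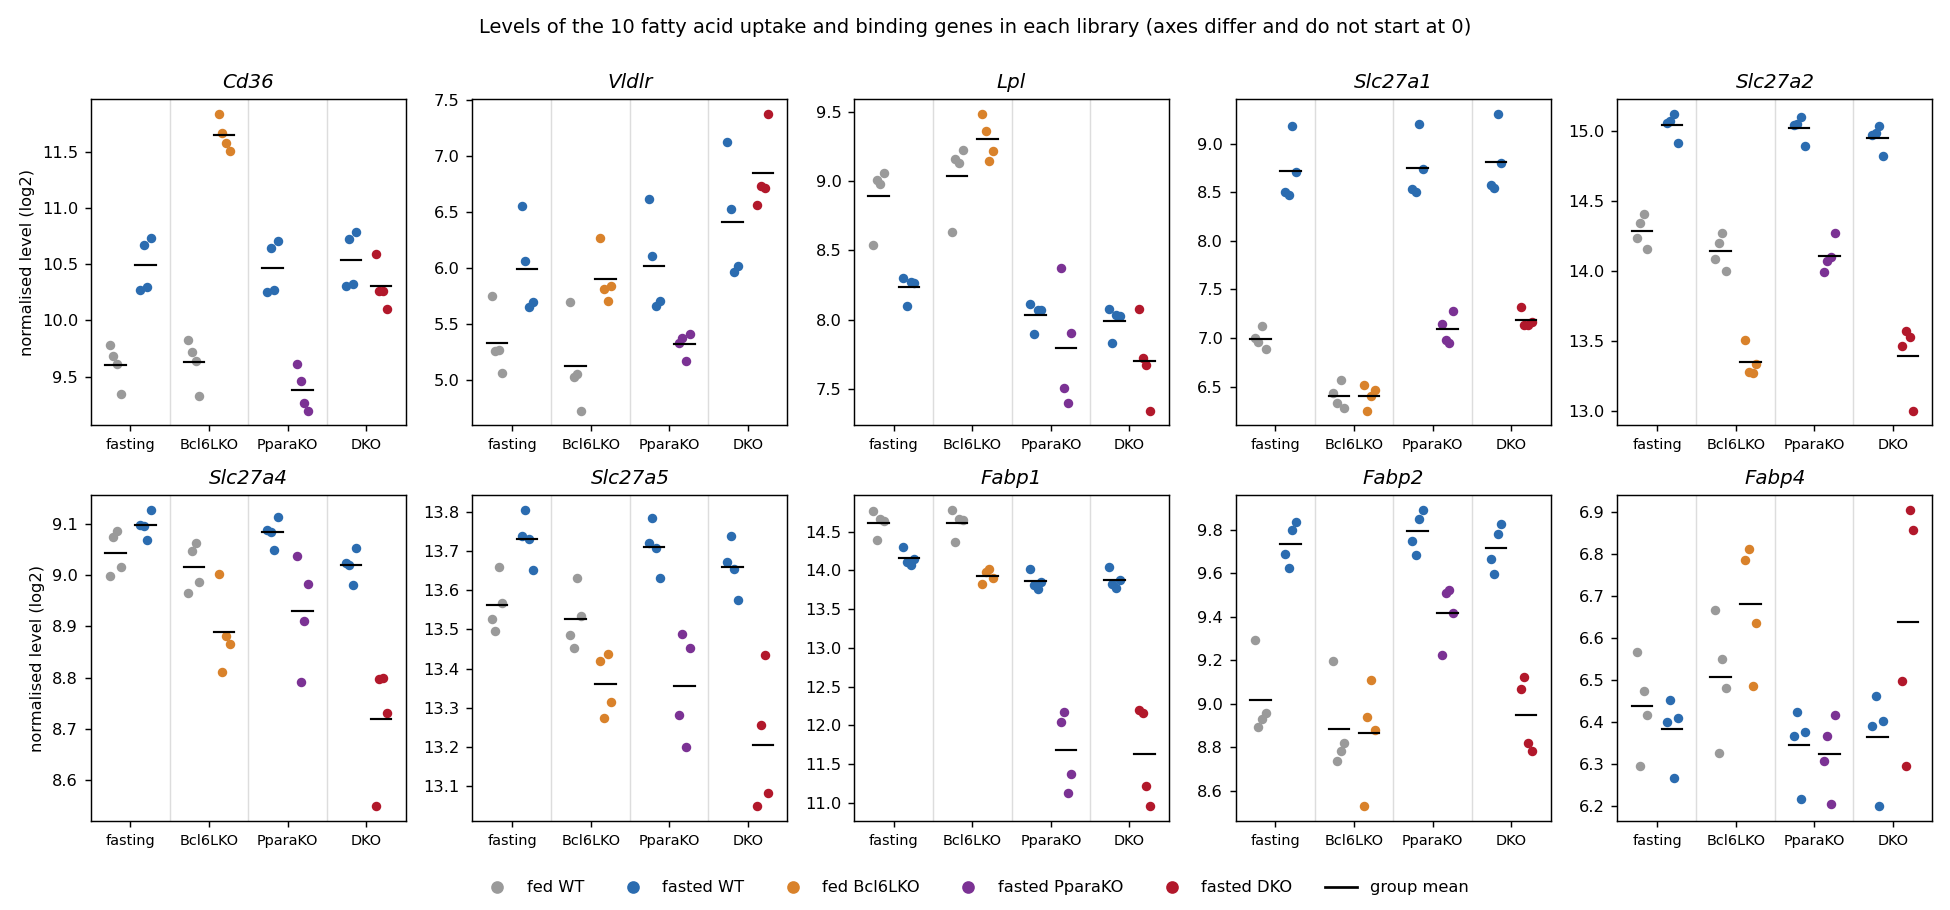
Normalised log2 level (y axis) of each of the 10 genes in each of 8 libraries of the fasting, Bcl6LKO, PparaKO and DKO tables (x axis), with points for libraries coloured by group and bars for group means (n = 4). Cd36 stands at 11.51 to 11.84 in Bcl6LKO livers against 9.33 to 9.83 in fed WT, and Fabp1 stands at 10.95 to 12.19 in DKO livers against 13.77 to 14.05 in fasted WT.

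**Figure D2:**
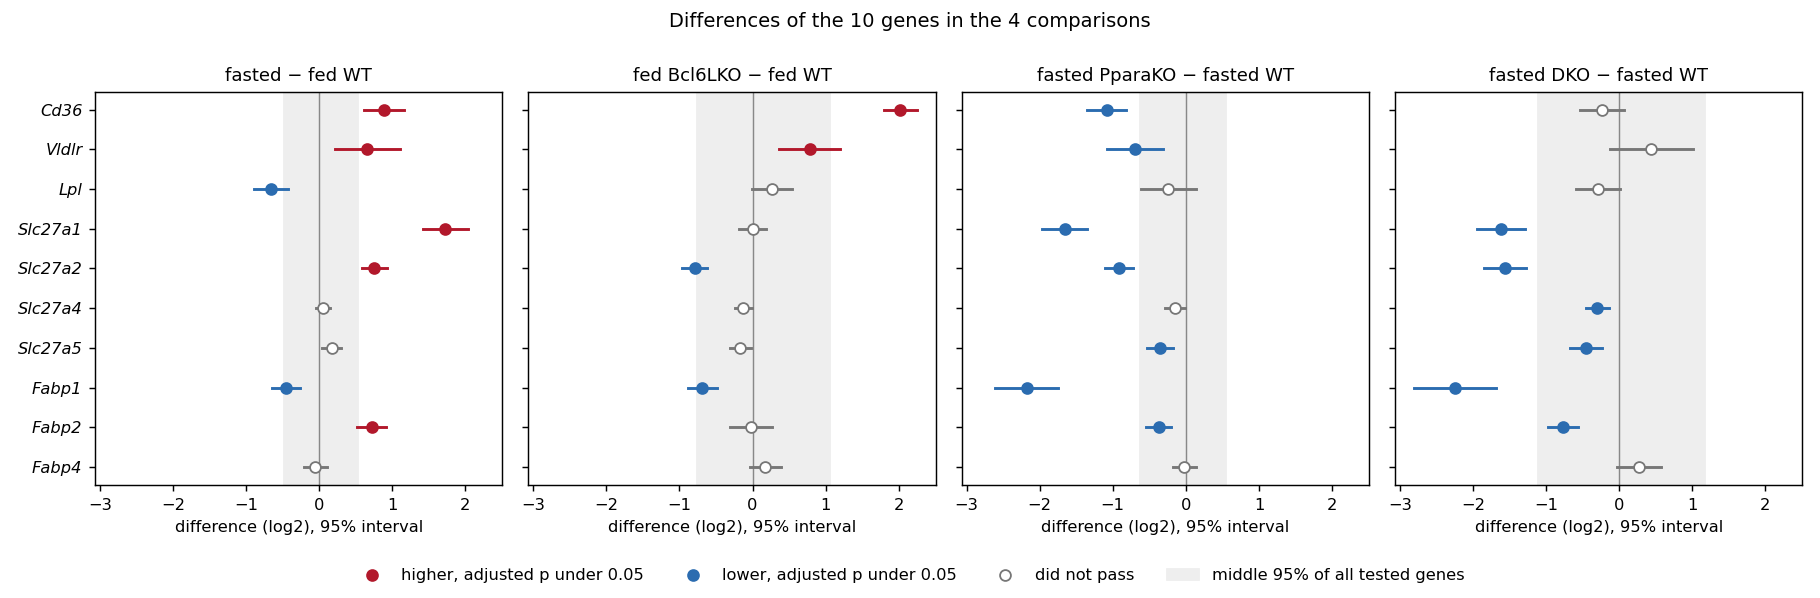
Difference between groups on the log2 scale (x axis, with 95% intervals from limma) for each of the 10 genes (y axis) in the 4 comparisons. Filled points passed at an adjusted p under 0.05, open points did not, and the grey band holds the middle 95% of all tested genes. In the PparaKO panel 7 genes are lower and none higher, whereas Cd36 and Vldlr are open points in the DKO panel.

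Across the comparisons, Slc27a2 and Fabp1 passed in 4 of 4, Cd36, Slc27a1, Fabp2 and Vldlr in 3, Slc27a5 in 2, Slc27a4 and Lpl in 1 and Fabp4 in none. Slc27a2 was higher with fasting and lower in each of the other 3 comparisons, whereas Fabp1 was lower in all 4. Cd36 was 0.89 with fasting and 2.02 in Bcl6LKO livers, and Slc27a1 was 1.73 and 0.00. The fasting and Bcl6LKO tables share the fed WT libraries, and the fasting, PparaKO and DKO tables share the fasted WT libraries, so these pairs of values are not independent. Their sizes also come from tables that were normalised separately. As a sum of back-transformed levels, the 10 genes made up 0.426 to 0.471% of the total in fed WT and 0.273 to 0.285% in Bcl6LKO libraries. They made up 0.451 to 0.482% of fasted WT totals and 0.231 to 0.264% in PparaKO libraries, and 0.456 to 0.490% in fasted WT and 0.157 to 0.209% in DKO libraries. In none of these pairs did the ranges overlap. In the fasting table the same share was 0.440 to 0.482% after feeding and 0.483 to 0.517% after fasting. These shares were not tested. They mainly follow Fabp1, Slc27a2 and Slc27a5, the most abundant of the 10. The totals also include albumin, which took 15.3 to 16.5% of them in Bcl6LKO against 3.79 to 6.37% in fed WT libraries, and 11.4 to 13.1% in DKO against 5.24 to 6.78% in fasted WT libraries.

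Counts in the lists of genes that follow stand beside 22.9, 38, 25 and 40.1% of all tested genes that passed for fasting, Bcl6LKO, PparaKO and DKO. A list of 13 other transport and binding proteins held 12 genes found in the tables, of which 6 were tested for fasting and 7 in each other comparison. Mfsd2a, a carrier of lysophosphatidylcholine with long-chain fatty acids attached, was 9.64, 8.21, 8.07 and 7.61 in fed WT and 10.27, 10.68, 11.08 and 10.53 in fasted WT libraries. It was higher with fasting (2.25, SE 0.36, limma adjusted p = 0.00183) and lower in PparaKO (-3.42, SE 0.20, adjusted p = 7.08e-07) and DKO livers (-2.30, SE 0.18, adjusted p = 4.45e-06). In the Bcl6LKO table fed WT replicate 1 (9.27) stood above the 3 others (6.84 to 7.60), and the difference of -0.64 did not pass. Fabp5, the binding protein first found in skin, was lower with fasting (-2.28, SE 0.28, adjusted p = 0.000439) and in Bcl6LKO livers (-1.42, SE 0.34, adjusted p = 0.00823) and was at 0.19 and 0.04 in PparaKO and DKO livers. In the Bcl6LKO table its groups overlapped, with fed WT replicate 3 at 7.48 and Bcl6LKO replicate 3 at 7.52. Counted together, 1 of the tested genes was higher and 1 lower with fasting, 0 and 2 in Bcl6LKO, 1 and 3 in PparaKO and 1 and 4 in DKO livers, and the shares for fasting and Bcl6LKO lie near those of all genes.

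All 13 listed genes that control lipoprotein lipase were tested. With fasting 4 were higher and none lower, the largest being Apoa5, an activator of the lipase system (0.57, SE 0.16, adjusted p = 0.0251), which was lost without fed WT replicate 2, 3 or 4 or fasted WT replicate 3 or 4 (adjusted p up to 0.0664). In Bcl6LKO livers 5 were higher and 3 lower, beside 18.3% and 19.8% of all tested genes. Apoc2, the cofactor the lipase needs, was 10.79 ± 0.12 in fed WT and 12.56 ± 0.09 in Bcl6LKO livers (1.78, SE 0.07, adjusted p = 1.33e-08), and Angptl4, an inhibitor, was lower (-1.02, SE 0.24, adjusted p = 0.00740). Apoc3, also an inhibitor of the lipase, was higher (0.73, SE 0.06, adjusted p = 8.42e-06). In PparaKO livers 1 was higher and 3 lower, with Apoc2 the higher one (0.44, SE 0.06, adjusted p = 0.000434). In DKO livers 5 were higher and 3 lower, with Apoc2 at 1.43 (SE 0.11, adjusted p = 5.44e-06) and Apoc3 at 0.70 (adjusted p = 0.00156). Lpl itself passed only in the fasting table.

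Of 19 listed lipases and lipoprotein receptors 18 were tested, and 17 in the DKO table. With fasting 3 were higher and 6 lower. In Bcl6LKO livers 3 were higher and 7 lower. The lipases Lipc and Lipg, which act on lipoproteins at the vessel wall, were at -2.08 (SE 0.07, adjusted p = 5.16e-09) and -1.94 (SE 0.14, adjusted p = 2.01e-06), and Sdc1, a heparan sulfate proteoglycan that takes up lipoprotein remnants, was at 1.26 (SE 0.07, adjusted p = 2.64e-07). In PparaKO livers 4 were higher and 4 lower, Lipg the furthest at -1.16 (SE 0.13, adjusted p = 8.84e-05), and in DKO livers 2 were higher and 6 lower, with Lipg at -2.95 (SE 0.20, adjusted p = 1.86e-06) and Lipc at -2.59 (SE 0.11, adjusted p = 4.27e-08). Lipc thus fell in the same livers in which Lpl did not pass.

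All 8 carriers of acyl-CoA and related lipids inside the cell were tested. With fasting 2 were higher and 1 lower, with Pctp, a carrier of phosphatidylcholine, at 0.62 (SE 0.14, adjusted p = 0.00907). In Bcl6LKO livers 1 was higher and 3 lower, led by Scp2, sterol carrier protein 2 (-1.91, SE 0.07, adjusted p = 5.51e-09). None was higher and 3 were lower in PparaKO livers, led by Acbd5, an acyl-CoA binding protein of the peroxisome (-0.86, SE 0.07, adjusted p = 5.85e-06). In DKO livers 1 was higher and 5 lower, with Scp2 at -1.79 (SE 0.10, adjusted p = 3.09e-07) and Acbd5 at -1.44 (SE 0.06, adjusted p = 6.02e-08). The median of these 8 genes was -0.86 in DKO livers, beside 0.00 for all genes.

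**Figure D3:**
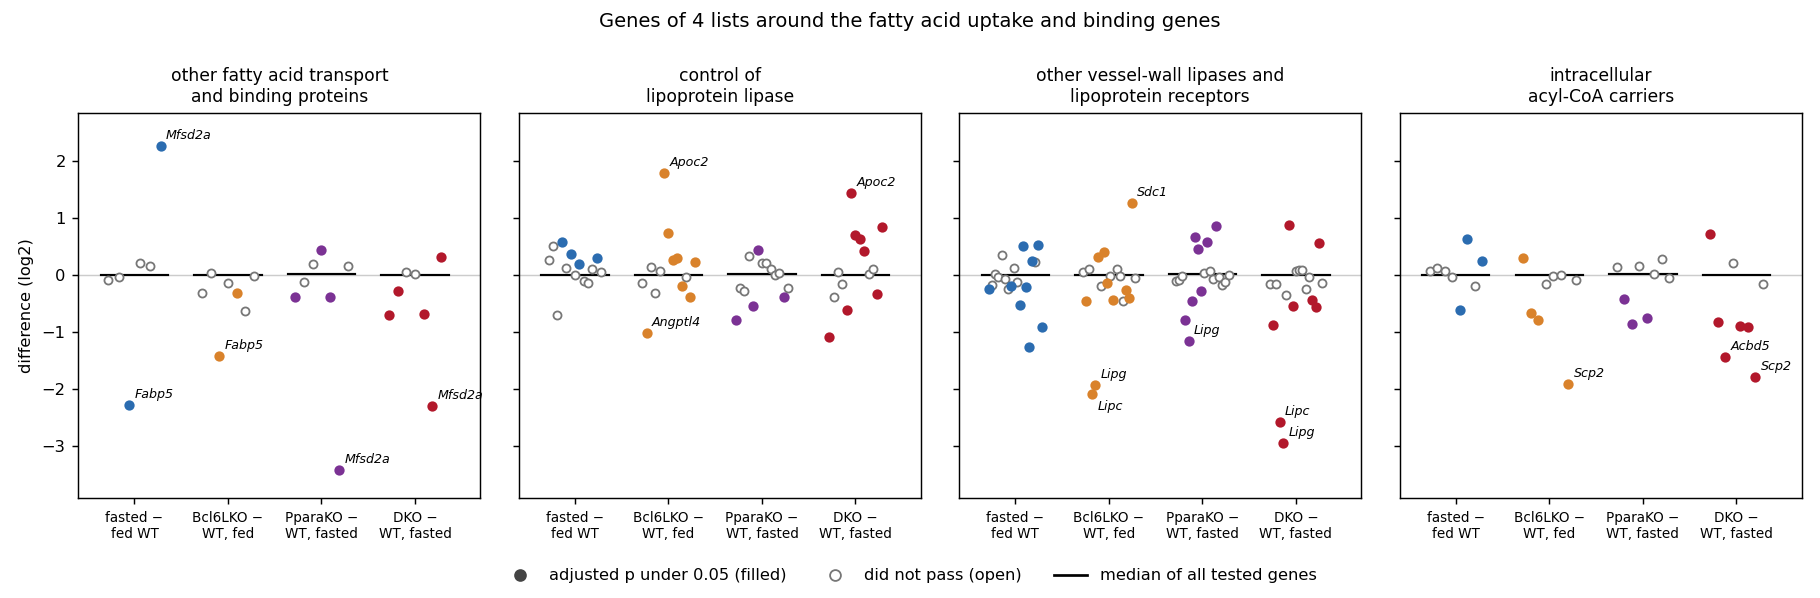
Difference on the log2 scale (y axis) of every tested gene of the 4 lists around the 10 genes, in the 4 comparisons (x axis). Filled points passed at an adjusted p under 0.05, genes given in the text are named where they changed by more than 2-fold, and black bars give the median of all tested genes. Mfsd2a stands at 2.25 with fasting and at -3.42 in PparaKO livers, and Scp2 stands near -1.91 in Bcl6LKO and -1.79 in DKO livers.

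Several of these genes are also expressed outside hepatocytes, and in whole liver fewer cells of a type and less RNA per cell cannot be told apart. The fat cell genes Adipoq and Plin1 were at or below 0 in every group mean of every table, while 12 adipose and muscle markers as a whole had 2 tested genes in the fasting table, both higher. Of 14 endothelial markers 2 were lower with fasting, 7 were higher in Bcl6LKO livers, none passed in PparaKO livers, and 4 were higher and 1 lower in DKO livers. Of all tested genes 11.9% were higher and 11% lower with fasting, 18.3% and 19.8% in Bcl6LKO, 11.7% and 13.3% in PparaKO and 19.3% and 20.8% in DKO livers. Pecam1, which defines endothelium, was higher in Bcl6LKO livers by 0.28 (adjusted p = 0.0128) and Cdh5 by 0.12 (adjusted p = 0.180), beside 2.02 for Cd36. The summed level of the endothelial list was 13.26 to 13.40 in fed WT and 13.46 to 13.64 in Bcl6LKO libraries. Of 14 Kupffer cell and macrophage markers 1 was lower with fasting, and 1, 3 and 3 were higher in Bcl6LKO, PparaKO and DKO livers. Adgre1 and Csf1r passed in no table. Of 15 stellate cell and fibroblast markers 7 were lower with fasting, when Lpl was also lower, and the summed level of that list was 12.88 to 13.26 in fed and 12.86 to 13.10 in fasted WT libraries. In Bcl6LKO livers 5 were higher, in PparaKO livers 1 was higher and 1 lower, and in DKO livers 4 were higher. The part of these cells in the levels of Cd36, Lpl and Fabp4 was not tested.

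**Figure D4:**
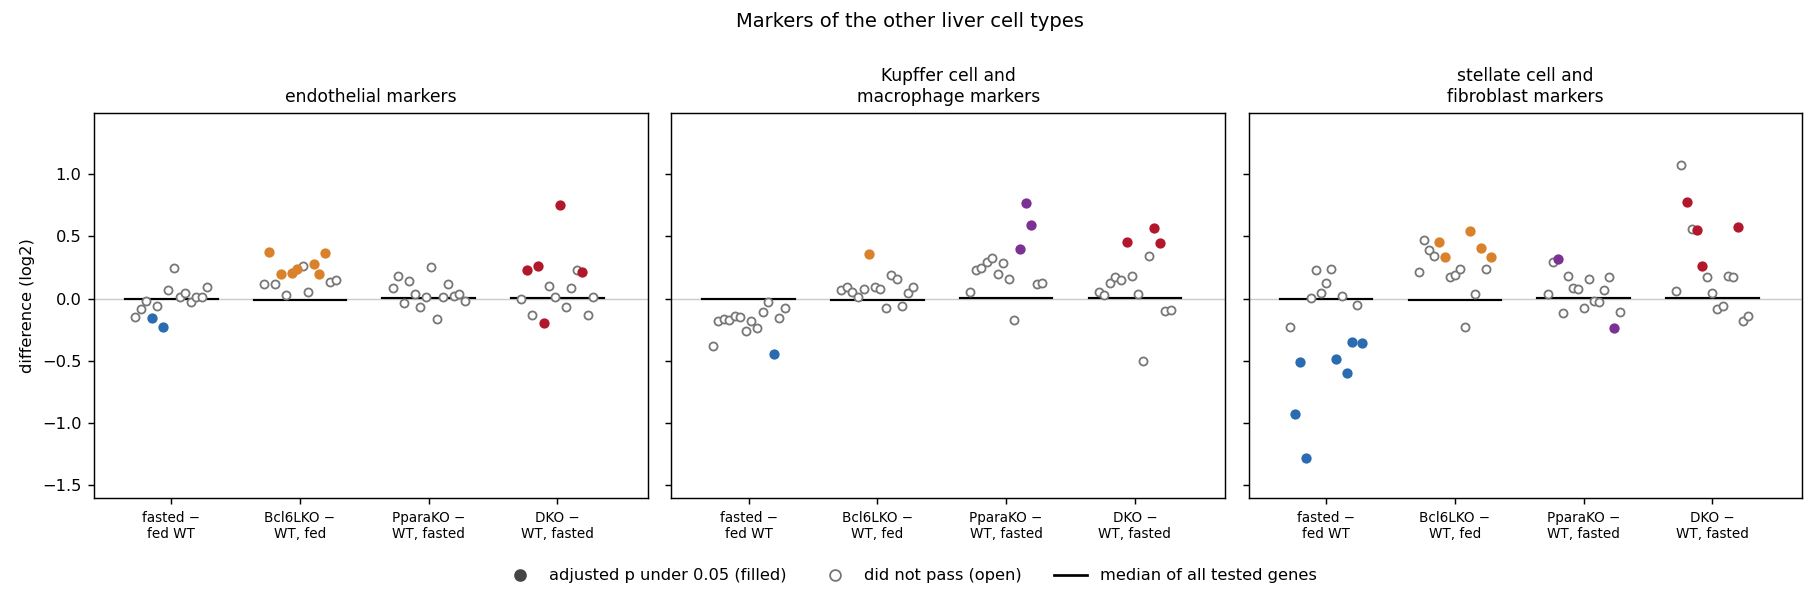
Difference on the log2 scale (y axis) of the tested markers of endothelium, Kupffer cells with macrophages, and stellate cells with fibroblasts, in the 4 comparisons (x axis). Filled points passed at an adjusted p under 0.05 and black bars give the median of all tested genes. Of the endothelial markers 7 are higher in Bcl6LKO livers, and of the stellate cell markers 7 are lower with fasting.

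For the 4 genes with a change of more than 2-fold in any comparison, the genes nearest in pattern were sought by the Euclidean distance of the 4 differences among genes tested in all 4 tables. Pex11a lay nearest to Slc27a2 (distance 0.12), at 0.68 for fasting, -0.80 for Bcl6LKO, -0.88 for PparaKO and -1.65 for DKO, followed by Wee1 and Gna12. Cyp2c38 lay nearest to Slc27a1 (distance 0.38, at 1.43, -0.10, -1.70 and -1.83), followed by G0s2 and Hsd17b10. Inmt lay nearest to Fabp1 (distance 0.45, at -0.27, -0.67, -2.29 and -2.65), followed by Sucnr1 and Raet1d. Cd36 had no gene as near, and Vnn3 came first (distance 0.77, at 0.73, 1.82, -0.55 and 0.26), followed by Ttpa and Atp6v0d2. These distances are descriptions over 4 values that share control libraries.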

How the data were processed

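The authors made stranded, ribosome-depleted libraries, used STAR for alignment to mm10, HOMER for exon counts and DESeq2 for each pair of groups (DESeq2 was not run for the present text). The deposited tables, 4 in number, hold log2 values per library, each table normalised by itself. The transformation is not given in the sources used here, but genes of low level vary little around their mean, which a regularised logarithm would give. The tables also hold the authors' own log2 fold changes, p-values and adjusted p-values, which were not used. The labels list 24 samples, of which 20 in 5 groups are analysed here.

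The planned test for log2 values was applied: limma 3.58.1 (R 4.3.3) with a trend in the prior spread, within each table, on genes with a mean of at least 4 and a value above 0. Benjamini-Hochberg adjustment covered all genes tested in a table. A gene passed at an adjusted p under 0.05. Intervals are 95% intervals and errors of means are SD. Read counts were not analysed here, so no counting interval is given.

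The members and lists were chosen with earlier results of these data known. Named in the text are all 10 genes, Bcl6, Ppara, genes of the 4 lists around them that passed with a fold over 2 or had the largest called difference of their list in a table, the 3 nearest genes per pattern, and 6 defining markers (Pecam1, Cdh5, Adgre1, Csf1r, Adipoq and Plin1). Some genes that this rule selects are not reported here. Albumin, Gm26697, Slc27a3, Apoc3, Hba-a1 and Hba-a2 were added after values were seen. Replicate numbers are shared between groups. Deviations of same-numbered libraries correlated at 0.13 to 0.26 in the fasting table, above 0.1 for all 4 pairs. Differently numbered libraries of that table correlated at -0.28 to 0.13. In the other tables same-numbered libraries correlated at -0.13 to 0.10. The main fits used no pairs in any table, and a replicate block was run only as an alternative. Within fasted WT, libraries 1 and 2 lay close to each other, as did 3 and 4. Over tested genes, the SD of their differences was 0.141 and 0.160 in the fasting table, against 0.193 to 0.219 for other pairs. In DKO livers it was 0.181 and 0.245, against 0.269 to 0.369. PparaKO livers did not show this split, with libraries 1 and 2 furthest apart (0.227). The main fits took no account of it. Alternatives were no or a higher minimum mean, 3 other scalings, other prior spreads, a replicate block, a fold over 2 and leaving out each library. Python 3.11.15 drew the figures with matplotlib 3.10.9.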

Additional observations from a re-analysis of the deposited data

Results flagged for a closer look

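Of 80 sets of 4 libraries checked (10 genes, 4 tables, 2 groups), 3 held a library whose distance from the nearest other exceeded Dixon's 95% limit for 4 values, and chance gives about 1 set in 20. All 3 concern fed WT replicate 1, and the same library is measured in both tables. Lpl stood at 8.54 in that library of the fasting table, with 8.98 as the nearest of the others (ratio 0.842). In the Bcl6LKO table it stood at 8.64, with 9.13 as the nearest (ratio 0.840). Fabp2 stood at 9.29 in that library of the fasting table, with 8.96 as the nearest (ratio 0.840). For both genes fed WT replicate 1 lay on the side of the fasted libraries. Without it the fasting differences were -0.78 for Lpl and 0.81 for Fabp2, and the Bcl6LKO difference of Lpl was 0.13.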

How the results depend on the processing

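Of 24 differences of the 10 genes that passed, 23 kept their direction and passed under every alternative that could be run except that of also requiring a fold over 2. The exception was Vldlr with fasting. Among differences that had not passed, Slc27a5 with fasting passed with median centring (0.18, adjusted p = 0.0456), without a trend in the prior spread (adjusted p = 0.0457) or without fed WT replicate 3. Vldlr could not be fitted with a minimum mean of 6 in 3 of the tables. When a fold over 2 was also required, 1, 1, 3 and 3 of the 10 genes passed for fasting, Bcl6LKO, PparaKO and DKO, in place of 7, 4, 7 and 6. With equal totals 7 passed in the Bcl6LKO table. Leaving out 1 library gave 6 to 7, 4 to 5, 7 to 8 and 6 to 7 genes. Differences near 0 changed sign: with equal totals Slc27a4 with fasting (-0.036) and Fabp4 (-0.042) and Slc27a1 (-0.21) in Bcl6LKO livers. With median centring Slc27a1 in Bcl6LKO livers became -0.00020, and with quantile normalisation Slc27a1 became -0.070 and Fabp2 0.0015. Leaving out 1 library, Fabp2 ranged from -0.10 to 0.094 and Slc27a1 from -0.038 to 0.057 in Bcl6LKO livers, and Fabp4 from -0.065 to 0.018 in PparaKO livers. The cause was not tested. The replicate block gave 7, 4, 7 and 6 genes and changed no call among the 10. Of the genes of the lists that are named here it changed none. Apoa5 with fasting was also lost with quantile normalisation (0.46, adjusted p = 0.0533). Without read counts the depth that limits the low genes, such as Vldlr, is unknown.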

Other observations

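Fed WT replicate 1 also held the highest Vldlr of its group in both tables (5.75 and 5.69, against 5.06 to 5.27 and 4.73 to 5.05 in the others), the highest Mfsd2a (9.64 and 9.27) and the lowest Bcl6 (8.19 and 8.02). Of 9 hepatocyte markers tested, 1 was higher with fasting, 2 were higher and 2 lower in Bcl6LKO, 3 and 1 in PparaKO and 4 and 1 in DKO livers. Of 7 erythroid markers tested, 6 were higher and 1 lower with fasting, 1 was higher and 1 lower in Bcl6LKO livers, none passed in PparaKO livers and 6 were lower in DKO livers. Hba-a1 and Hba-a2 in that list had identical values in every library of the fasting and Bcl6LKO tables, so the counts hold the same measurement more than once. Of 9 intestine markers 2 were tested, and both were higher with fasting, while 1 was higher and 1 lower in each other comparison. The other listed intestine markers fell below the minimum mean level. These counts stand beside 22.9, 38, 25 and 40.1% of all tested genes that passed for fasting, Bcl6LKO, PparaKO and DKO.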
